A study of Mus musculus with 8 samples.

Results

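The genes described here are 29 that make cholesterol or control how much of it is made, out of 22869 gene symbols in the count table. They were chosen by name: a list of 30 symbols was looked up in the table, where Sc4mol and Msmo1 are the same gene and the table uses the older symbol Sc4mol. Where a symbol had several transcript rows, as 5 of these genes did, the row with the highest mean count over all libraries stood for it. All 29 had a row and all 29 passed the filter on low counts. Expression was measured by RNA sequencing in cortex of mice on a C57BL/6 strain background that carried the APP/PS1 genotype, transgenes that make the brain form amyloid plaques. The promoter that drives the transgenes is not given in the labels. Bexarotene, which activates the retinoid X receptors, was given to the mice behind 4 libraries; the other 4 come from mice that received 0.2 mg/kg glycerol, the vehicle group. Both groups carried APP/PS1, so no comparison with plaque-free mice is possible. The labels do not state how much bexarotene was given or for how long, nor age, sex or how many animals a library holds. The p-values therefore measure spread between libraries, which may in part be technical. In extracts of whole tissue, fewer cells of a type and less RNA per cell cannot be told apart.

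Cholesterol does not cross the blood-brain barrier, so the brain makes its own, mainly in astrocytes, oligodendrocytes and, during development, neurons. The pathway joins acetyl-CoA units into isoprenoids, joins isoprenoids into squalene, closes squalene into lanosterol and trims lanosterol to cholesterol. Its genes are switched on together by SREBP transcription factors. When membranes are rich in sterol, the Insig proteins hold SREBP and its escort Scap in the endoplasmic reticulum; when sterol is low, Scap carries SREBP to the Golgi, where a pair of proteases cuts it free. Retinoid X receptors also act in pairs with liver X receptors, which sense oxidised sterols and switch on genes of cholesterol export.

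The start regions of 3 of these genes are shown because they carry, or lack, the letters through which SREBP is known to act. The core of the sterol regulatory element was searched as TCACNCCAC and the box bound by its partner factor NF-Y as CCAAT, both on either strand, in windows of 250 bases before to 50 after each RefSeq start (build GRCm38.p6). No matches of the 2 motifs overlapped in the windows printed. Capitals mark the matches, where ATTGG is CCAAT on the other strand. The Hmgcs1 window lies at chr13:119690101-119690400, that of Idi1 at chr13:8885356-8885655 and that of Insig1 at chr5:28071162-28071461, all on the plus strand.

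Hmgcs1: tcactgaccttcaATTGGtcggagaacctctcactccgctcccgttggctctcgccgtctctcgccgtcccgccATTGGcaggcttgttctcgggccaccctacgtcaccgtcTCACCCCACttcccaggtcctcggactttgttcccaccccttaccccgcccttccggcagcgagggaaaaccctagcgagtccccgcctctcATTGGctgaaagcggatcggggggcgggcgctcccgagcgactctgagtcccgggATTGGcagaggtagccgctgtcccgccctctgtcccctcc

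Idi1: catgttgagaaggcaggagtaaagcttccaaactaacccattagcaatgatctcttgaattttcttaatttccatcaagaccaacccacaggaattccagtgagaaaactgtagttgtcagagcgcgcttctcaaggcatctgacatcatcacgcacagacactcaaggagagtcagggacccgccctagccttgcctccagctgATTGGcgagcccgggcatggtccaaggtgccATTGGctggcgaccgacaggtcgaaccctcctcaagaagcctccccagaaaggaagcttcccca

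Insig1: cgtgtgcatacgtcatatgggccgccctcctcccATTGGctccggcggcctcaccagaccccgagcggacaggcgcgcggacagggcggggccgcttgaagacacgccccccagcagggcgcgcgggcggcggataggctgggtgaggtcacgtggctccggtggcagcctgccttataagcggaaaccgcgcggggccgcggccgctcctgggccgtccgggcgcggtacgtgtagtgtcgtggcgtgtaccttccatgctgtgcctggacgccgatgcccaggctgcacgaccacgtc

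TCACNCCAC was found in 1 of the 25 members with a window, Hmgcs1, where it reads TCACCCCAC and begins 137 bases before the start; 1.24% of 32851 mouse windows hold it. CCAAT was found in 21 of the 25 members, in 21 of their 31 windows, and in 37.4% of all windows. Hmgcs1 held 4 of these boxes, Idi1 held 2 and Insig1 held 1. A match is a description of letters and not a binding site, and a window without a match says nothing about SREBP at that gene. Insig1 was taken by a set rule; Hmgcs1 and Idi1 were taken after their windows and values had been seen.

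Library totals over all rows ran from 42413825 to 76542067 counts, and the 29 genes together held between 55187 and 95132 counts per library. No pair of libraries matched within counting noise: the squared count difference was at least 12.1 times that expected from counting. The libraries differ in ways the labels do not give. Summed over 5 markers of striatum (Drd1a, Drd2, Adora2a, Ppp1r1b, Rgs9), bexarotene replicates 1 and 3 had 516 and 363 CPM and vehicle replicate 1 had 242 CPM, while bexarotene replicates 2 and 4 had 104 and 117 CPM and the other 3 vehicle libraries 91.3 to 128 CPM. CPM are counts scaled to a common library size with edgeR's TMM factors. Markers of projection neurons of the cortex (Slc17a7 and 5 others) were present everywhere, at 1080 to 1865 CPM under bexarotene and 1397 to 1766 CPM under vehicle, and were lowest in bexarotene replicates 1 and 3. Astrocyte markers (Aqp4 and 5 others) were at 3066 to 3666 CPM under bexarotene and 3180 to 4249 CPM under vehicle. Choroid plexus markers reached 1444 CPM in bexarotene replicate 2 and were at 73.9 to 224 CPM in the other bexarotene libraries, against 15.0 to 40.3 CPM in vehicle libraries; no gene of these lists was at 0 in any library. Liver markers (Alb, Apoa1, Serpina1a, Fgb) summed to 31.0 to 91.5 CPM under bexarotene, against 0.517 and 3.94 CPM in vehicle replicates 1 and 3 and 67.5 and 98.8 CPM in vehicle replicates 2 and 4, and 1 of the 4 was at 0 in some library. Xist, an RNA of female cells, and 4 summed Y-linked genes were both present in all bexarotene libraries, at 84.7 to 218 CPM and 9.81 to 88.5 CPM. Among vehicle libraries, replicates 1 and 3 had Xist at 248 and 307 CPM and hardly any Y-linked RNA, and replicates 2 and 4 had Y-linked sums of 134 and 141 CPM and hardly any Xist.

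The comparison asks whether RNA of the cholesterol pathway differs under bexarotene. After adjustment 0 of the 29 members passed by edgeR's quasi-likelihood test, beside 0.00622% of 16069 genes. DESeq2 called 0 members beside 0.604% of genes, with 2 members (Idi1 and Hmgcs1) left without an adjusted p, edgeR's exact test 0 beside 0.205%, and limma voom 0 beside 0.00622%. Differences were small: 23 of 29 genes were lower and 6 higher under bexarotene, beside 49.8% of all tested genes lower, and the median log2 fold change was -0.12, beside 0.001 over all tested genes. At an unadjusted p under 0.05 stood 5 members, beside 8.77% of all genes: 4 were lower (Idi1, Sc4mol, Mbtps2 and Sc5d), beside 3.89% of all genes, and 1 was higher (Fdps), beside 4.88% of all genes. With the replicate number as a block the same 4 were lower and 0 were higher, and the share of all genes is not given for that fit. The groups did not overlap in 2 members, beside 5.77% of all genes: Fdps was higher, beside 3.61%, and Idi1 lower, beside 2.16%. Leaving out single libraries moved the count of 5 members in either direction. It fell to 1 when bexarotene replicate 3 or vehicle replicate 3 was omitted. It fell to 2 when bexarotene replicate 1, bexarotene replicate 4, vehicle replicate 1 or vehicle replicate 4 was omitted. Omitting bexarotene replicate 2 raised it to 7, of which 6 were lower, and omitting vehicle replicate 2 kept it at 5. For these fits the share of all genes at an unadjusted p under 0.05 is not given. A move of the members alone therefore cannot be told from a move of all genes. Without the 3 libraries with the highest striatum markers (bexarotene replicates 1 and 3 and vehicle replicate 1) no member was left at that level and the median was -0.04. Fewer libraries in each group also weaken the test, and the share of all genes at that level is not given for this setting. The log2 fold changes there were -0.54 (Idi1), -0.19 (Sc4mol), -0.21 (Mbtps2), -0.07 (Sc5d) and 0.26 (Fdps). A covariate for the markers left 2 members and a median of -0.08.

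**Figure D1:**
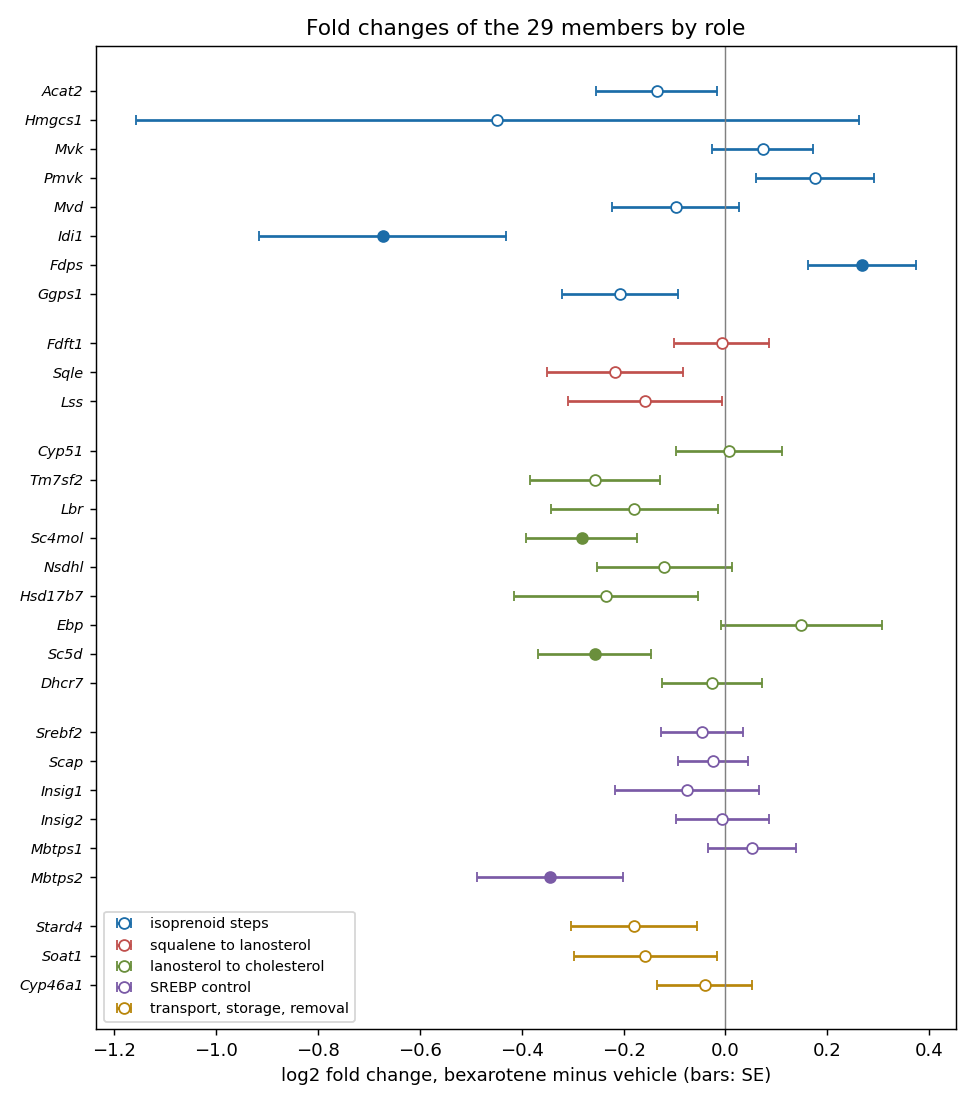
Log2 fold change (x axis, bexarotene minus vehicle) of the 29 genes, ordered by role along the y axis, with bars for the standard error and filled points at an unadjusted p under 0.05. Most points lie left of 0, with Idi1 (-0.67) at the far left and Fdps (0.27) at the far right, and none passed after adjustment over all genes.

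The steps that build isoprenoids gave the widest spread of the 5 roles. Idi1, which isomerises isopentenyl diphosphate and whose start region is printed above, had 1.71, 2.14, 1.55 and 2.05 CPM in bexarotene replicates 1 to 4, against 2.73, 2.88, 2.21 and 4.07 CPM in vehicle replicates 1 to 4. Every bexarotene library lay below every vehicle library, although vehicle replicate 3 and bexarotene replicate 2 nearly touched, and vehicle replicate 4 stood well above the rest. Bexarotene libraries averaged 1.86 ± 0.280 CPM and vehicle libraries 2.97 ± 0.788 CPM (SD, n = 4 each). On the log2 scale Idi1 differed by -0.67 ± 0.24 (SE; adjusted p = 0.506, quasi-likelihood test). A two-sided exact permutation of its log2 CPM gave p = 0.0286, the smallest that 4 against 4 allows. Over the alternatives its adjusted p ran from 0.26 to 1.0. Replicates 1 and 3 alone gave -0.58, and replicates 2 and 4 alone gave -0.70.

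Fdps, which makes farnesyl diphosphate, the branch point towards both sterols and protein prenylation, went the other way. It had 10.9, 10.4, 12.3 and 11.3 CPM in bexarotene replicates 1 to 4, against 10.1, 8.65, 9.29 and 9.26 CPM in vehicle replicates 1 to 4. Every bexarotene value exceeded every vehicle value, with bexarotene replicate 2 and vehicle replicate 1 the nearest neighbours. Fdps differed by 0.27 ± 0.11 on the log2 scale (adjusted p = 0.549, quasi-likelihood test) and by nearly the same in each set of replicates, 0.26 in 1 and 3 and 0.28 in 2 and 4. With an offset for transcript length and GC content the log2 fold change of Fdps was 0.14. Its unadjusted p, 0.029 in the quasi-likelihood fit, was 0.0546 with the replicate block and 0.0652 in edgeR's exact test.

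Idi1 and Fdps also share a limit that most other members do not have. Matched against the GENCODE M21 transcripts, 684 of the 3027 bases of the Idi1 transcript were 100% identical to the processed pseudogene Gm13502. A further 2 pseudogenes matched Idi1 at 97.7% and 90.6%. Fdps had 5 processed pseudogenes, the closest, Gm3571, at 98.9% over 1062 of its 1237 bases, and it shared 751 bases at 100% with the gene model Gm43738. Reads from such stretches can be split, dropped or shared in counting, and how the authors treated them is not given, so the levels and differences of both genes are uncertain. In all, 5 members had a near-identical copy of at least 200 bases on the same strand (Acat2, Idi1, Fdps, Ggps1 and Fdft1). On the opposite strand 7 matched a transcript of another gene (Acat2, Hmgcs1, Idi1, Ggps1, Fdft1, Lbr and Scap). These matches were at 100% identity except that of Acat2 to Tcp1, at 98.7%. They are matches of sequence, and overlap of positions in the genome was not tested.

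Hmgcs1, which condenses acetyl-CoA and acetoacetyl-CoA at the entry to the pathway, was nearly empty in this table. It had 16, 11, 36 and 18 counts in bexarotene replicates 1 to 4 and 32, 28, 4 and 18 counts in vehicle replicates 1 to 4. Per length it stood at 0.0844 CPM per kb under bexarotene and 0.116 under vehicle, while the enzymes from squalene synthase onward lay between 2.83 (Lbr) and 32.9 (Sc4mol) over all libraries. No near-identical copy of at least 200 bases was found for it on the same strand. On the opposite strand 462 bases of Hmgcs1 matched Gm48342 at 100%. The cause of the low count was not tested. At such counts its log2 fold change, -0.45 ± 0.71, is set by a few reads, and a change of the size seen in other members was not detectable.

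The other isoprenoid genes overlapped between the groups. Pmvk, the kinase that makes mevalonate diphosphate and the highest of the 8 per length, had 26.1, 23.3, 23.9 and 24.5 CPM in bexarotene replicates 1 to 4, against 17.4, 25.6, 21.3 and 22.3 CPM in vehicle replicates 1 to 4. Vehicle replicate 1 was the low value, and the log2 fold change of 0.18 ± 0.12 came with 0.38 in replicates 1 and 3 alone and 0.002 in replicates 2 and 4 alone. Its second transcript row gave 0.18 ± 0.11, close to the row used. Acat2, the cytosolic thiolase that joins a pair of acetyl-CoA units, was at 26.8 ± 2.41 CPM in bexarotene and 29.4 ± 4.40 CPM in vehicle libraries (SD, n = 4 each), a difference of -0.14 ± 0.12; its near-identical paralogue Acat3 differed by 0.14 ± 0.09. Mevalonate kinase Mvk had a log2 fold change of 0.07 ± 0.10, the decarboxylase Mvd -0.10 ± 0.12, and Ggps1, which makes geranylgeranyl diphosphate, -0.21 ± 0.11. The offset for length and GC content brought Pmvk to 0.02 and Ggps1 to -0.06. Of the 8 isoprenoid genes 3 were higher and 5 lower, with a median log2 fold change of -0.12.

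**Figure D2:**
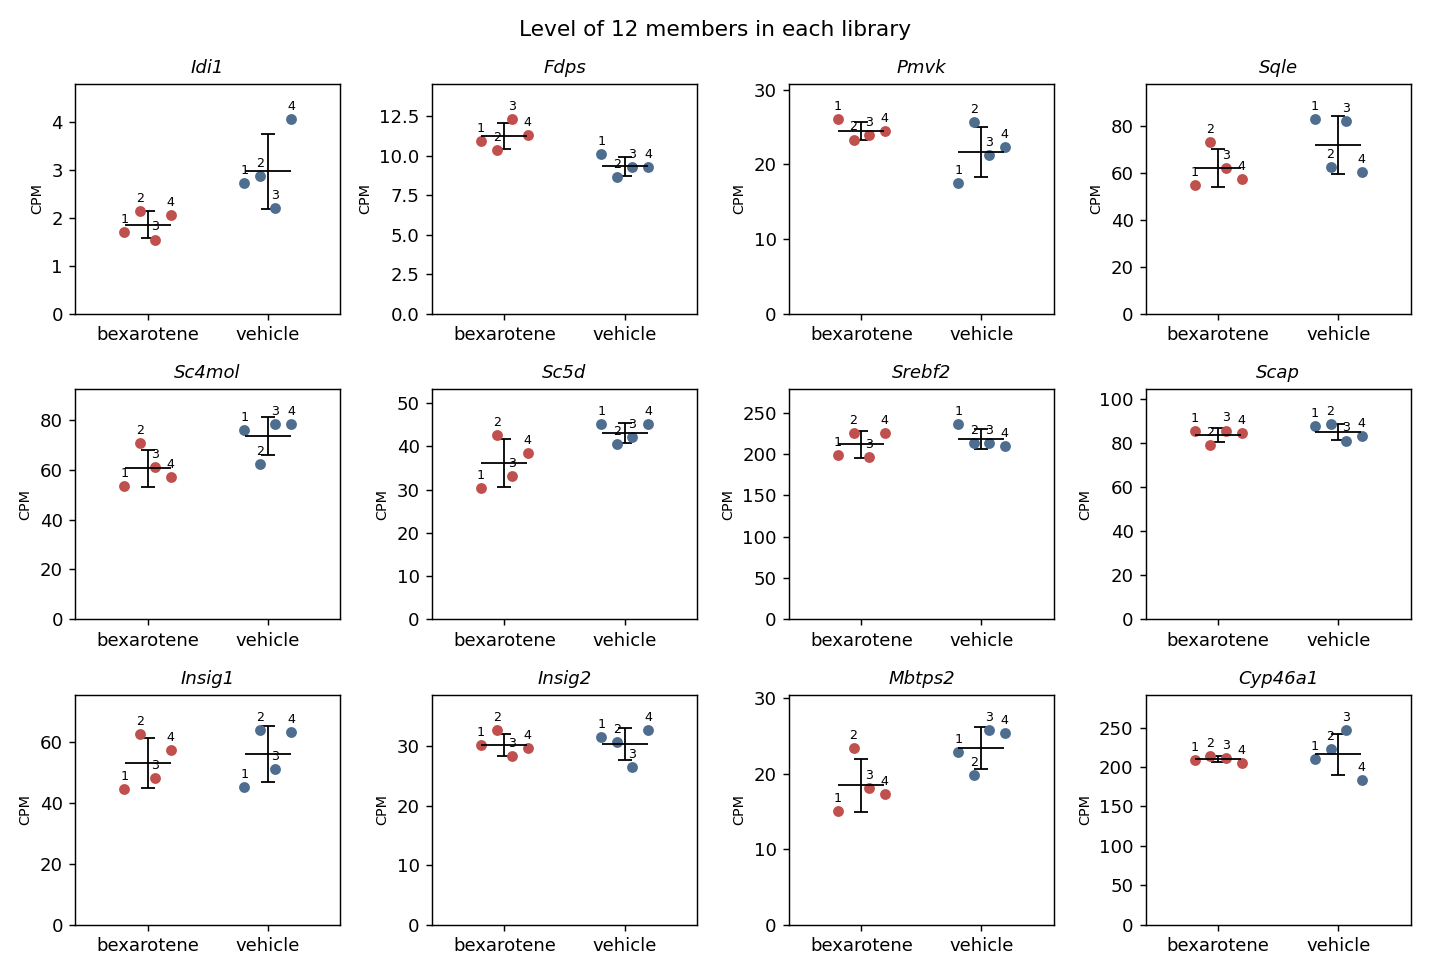
CPM (y axis, from 0) of 12 members in the bexarotene (red) and vehicle (blue) libraries, each point numbered by replicate, with the mean and SD as bars. Idi1 and Fdps do not overlap between groups, and Insig1 sorts by replicate number rather than by group.

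From farnesyl diphosphate to lanosterol, all 3 genes overlapped between groups and had log2 fold changes at or below 0, with a median of -0.16. Sqle, the epoxidase that oxidises squalene and the highest of the 3 per length, had 54.9, 73.2, 61.8 and 57.4 CPM in bexarotene replicates 1 to 4, against 83.0, 62.3, 82.1 and 60.1 CPM in vehicle replicates 1 to 4. Vehicle replicates 1 and 3 stood above all other libraries, while vehicle replicates 2 and 4 lay among the bexarotene libraries. Sqle differed by -0.22 ± 0.13 on the log2 scale, with -0.50 in replicates 1 and 3 alone and 0.08 in replicates 2 and 4 alone. Fdft1, squalene synthase, was at 65.5 ± 7.30 CPM in bexarotene and 65.8 ± 3.92 CPM in vehicle libraries (SD, n = 4 each), and its difference of -0.007 ± 0.09 took the other sign under upper quartile scaling and with no composition factor. Its counts may hold reads of Ctsb, a lysosomal protease gene on the opposite strand with which it shares 774 bases, since the strand setting is not given. Lss, which closes the rings of lanosterol, had a log2 fold change of -0.16 ± 0.15, and bexarotene replicates 1 and 3 were its lowest libraries at 13.1 and 12.4 CPM.

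The 9 genes from lanosterol to cholesterol held 2 of the 5 members at an unadjusted p under 0.05, and 7 of the 9 were lower under bexarotene (median -0.18 on the log2 scale). Sc4mol (Msmo1), which removes methyl groups from the sterol, had 53.6, 70.8, 61.1 and 57.3 CPM in bexarotene replicates 1 to 4, against 76.1, 62.3, 78.3 and 78.4 CPM in vehicle replicates 1 to 4. Vehicle replicates 1, 3 and 4 lay above all bexarotene libraries, and vehicle replicate 2 among them. Sc4mol differed by -0.28 ± 0.11 on the log2 scale (adjusted p = 0.537, quasi-likelihood test; p = 0.0571, exact permutation test), by -0.43 in replicates 1 and 3 alone and by -0.13 in replicates 2 and 4 alone. Sc4mol was -0.29 with the length and GC offset, so it moved little under that correction.

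Sc5d, the desaturase of the late pathway, had 30.4, 42.7, 33.0 and 38.5 CPM in bexarotene replicates 1 to 4, against 45.1, 40.5, 42.1 and 45.1 CPM in vehicle replicates 1 to 4. Bexarotene replicate 2 lay inside the vehicle range and the other 3 bexarotene libraries lay below it. Sc5d differed by -0.26 ± 0.11 on the log2 scale (adjusted p = 0.562, quasi-likelihood test), -0.46 in replicates 1 and 3 alone and -0.08 in replicates 2 and 4 alone, and -0.14 once length and GC content were offset. Other enzymes of these steps had log2 differences within about 2 standard errors. Tm7sf2, a sterol reductase, was at -0.26 ± 0.13. Once length and GC content were offset, Tm7sf2 was at -0.39 (unadjusted p = 0.0068 and adjusted p = 0.783, quasi-likelihood test). Hsd17b7, which reduces the keto group left by demethylation, was at -0.24 ± 0.18. Nsdhl, which acts in the same demethylation, was at -0.12 ± 0.13. Hsd17b7 had 12.2 and 15.0 CPM in bexarotene replicates 1 and 3 but 21.4 and 20.6 CPM in bexarotene replicates 2 and 4, against 17.96, 18.1, 22.6 and 22.8 CPM in vehicle replicates 1 to 4. Lbr, a reductase that also binds lamin B at the nuclear envelope, had -0.18 ± 0.16. The isomerase gene Ebp was higher, at 0.15 ± 0.16, and Cyp51, the lanosterol demethylase, and Dhcr7, which makes cholesterol in the last step, were at 0.0066 ± 0.10 and -0.03 ± 0.10.

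The 6 genes that control SREBP had a median log2 difference of -0.04, with 1 higher and 5 lower. Srebf2, which encodes the SREBP most devoted to cholesterol genes, had 199, 226, 197 and 226 CPM in bexarotene replicates 1 to 4, against 236, 214, 214 and 210.3 CPM in vehicle replicates 1 to 4. Bexarotene replicates 1 and 3 lay below all vehicle libraries and bexarotene replicates 2 and 4 inside the vehicle range, and the log2 difference was -0.05 ± 0.08, with -0.18 in replicates 1 and 3 alone and 0.09 in replicates 2 and 4 alone. Scap, the escort, had 85.6, 79.0, 85.6 and 84.3 CPM in bexarotene replicates 1 to 4, against 87.7, 88.5, 81.1 and 83.0 CPM in vehicle replicates 1 to 4. Its log2 fold change of -0.02 ± 0.07 was the most precise of the 29, and the sign of so small a value turned under upper quartile scaling (0.0077).

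Insig1, itself a target of SREBP and the sensor that retains Scap, had 44.5, 62.6, 48.4 and 57.4 CPM in bexarotene replicates 1 to 4, against 45.5, 64.2, 51.3 and 63.5 CPM in vehicle replicates 1 to 4. In both groups replicates 1 and 3 were low and replicates 2 and 4 high, while the groups overlapped. Insig1 differed by -0.08 ± 0.14 on the log2 scale, with -0.06 in replicates 1 and 3 alone and -0.09 in replicates 2 and 4 alone. Summed oligodendrocyte markers (Mbp, Mog, Mag, Mobp, Cnp) split the libraries likewise, at 1312 and 1042 CPM in bexarotene replicates 1 and 3 and 1682 and 1621 CPM in bexarotene replicates 2 and 4, against 855 and 761 CPM in vehicle replicates 1 and 3 and 1479.9 and 1730.2 CPM in vehicle replicates 2 and 4. The part of these cells in the Insig1 values was not tested. Insig2, the paralogue with the same retaining role, did not split in this way. It had 30.2, 32.7, 28.3 and 29.6 CPM in bexarotene replicates 1 to 4, against 31.5, 30.6, 26.4 and 32.7 CPM in vehicle replicates 1 to 4. Its log2 fold change was -0.0065 ± 0.09, and its second transcript row, at a lower level, gave -0.10 ± 0.09.

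Of the proteases that release SREBP, Mbtps2 was the member with an unadjusted p under 0.05. It had 15.1, 23.4, 18.1 and 17.3 CPM in bexarotene replicates 1 to 4, against 22.8, 19.8, 25.8 and 25.4 CPM in vehicle replicates 1 to 4. Bexarotene replicate 2 lay within the vehicle range and the other bexarotene libraries below it, as for Sc5d. Mbtps2 differed by -0.34 ± 0.14 on the log2 scale (adjusted p = 0.562, quasi-likelihood test), -0.55 in replicates 1 and 3 alone and -0.16 in replicates 2 and 4 alone, and -0.17 with the length and GC offset. Mbtps1, which makes the cut before it, had a log2 fold change of 0.05 ± 0.09.

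**Figure D3:**
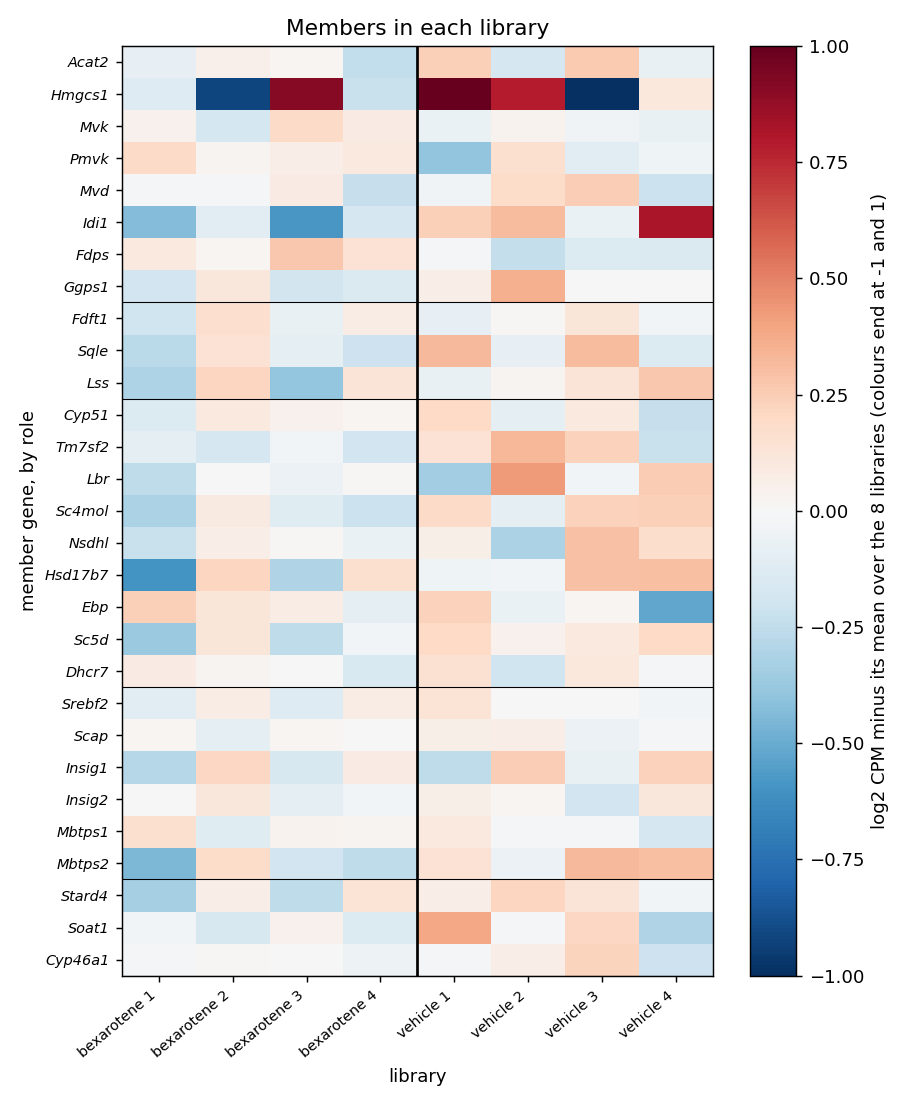
Log2 CPM of each gene (rows, grouped by role) relative to its mean over the 8 libraries (columns, bexarotene left of the thick line), with colours from -1 (blue) to 1 (red). Bexarotene replicate 1 is blue for most enzymes, with 21 of 29 members below their mean there, beside 7347 of all 16069 tested genes. Hmgcs1, with its low counts, varies most.

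Of the 3 genes that move, store or remove cholesterol, all were lower with a median log2 fold change of -0.16, and none had an unadjusted p under 0.05. Cyp46a1, the neuronal enzyme that hydroxylates cholesterol so that it can leave the brain, was the highest member per length. It had 209, 214, 212 and 205 CPM in bexarotene replicates 1 to 4, against 211, 223, 247 and 184 CPM in vehicle replicates 1 to 4. The bexarotene libraries lay close together inside the wider vehicle range, and the log2 fold change was -0.04 ± 0.09. Stard4, a carrier of cholesterol between membranes, had a log2 fold change of -0.18 ± 0.12, and Soat1, which stores cholesterol as esters, -0.16 ± 0.14.

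Levels per length, as CPM per kb of transcript, spanned the roles widely. Cyp46a1 stood at 99.2 CPM per kb under bexarotene and 102 CPM per kb under vehicle, and Srebf2 at 41.7 under bexarotene and 43.1 under vehicle. Sc4mol averaged 29.7 CPM per kb under bexarotene and 36.1 under vehicle, and Sqle 22.4 under bexarotene and 26.1 under vehicle. Scap followed at 19.8 under bexarotene and 20.1 under vehicle, and Insig1 at 19.7 under bexarotene and 20.8 under vehicle. Over all libraries Pmvk averaged 19.3 and Fdft1 17.7 CPM per kb. At the low end were Soat1 at 2.13 and Idi1 at 0.798, with Hmgcs1 below them. Sequential enzymes were thus unequal in RNA: Idi1 lay far below Mvd (8.18) before it and Fdps (8.32) after it, with the limit on its reads given above.

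**Figure D4:**
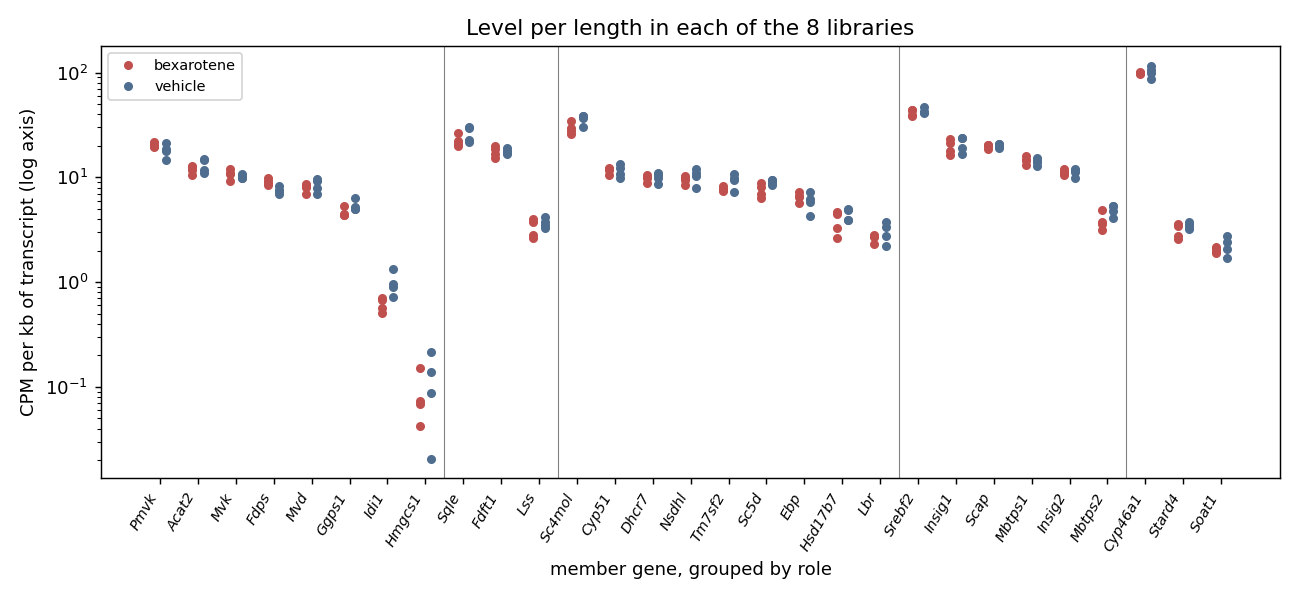
CPM per kb of transcript (log y axis) for the 29 genes on the x axis, grouped by role and ordered by mean within a role, with 4 bexarotene (red, left) and 4 vehicle (blue, right) libraries each. Cyp46a1 stands highest near 101 and Hmgcs1 lowest, and the groups overlap for all but Idi1 and Fdps.

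Differences between groups were also taken for replicates 1 and 3 and for replicates 2 and 4, the sets into which the oligodendrocyte and sex markers divide the vehicle libraries. Sex markers do not divide the bexarotene libraries in this way, since all of them hold both Xist and Y-linked RNA. Within each set the groups therefore also differ in sex markers, which cannot be told apart from treatment. Within replicates 1 and 3, 20 of the 29 genes were lower under bexarotene, beside 7524 of all 16069 tested genes. The median of the 29 was -0.18, beside 0.03 over all tested genes. Within replicates 2 and 4, 13 of 29 were lower, beside 7861 of all 16069 tested genes. The median of the 29 was 0.005, beside 0.005 over all tested genes. The enzymes from lanosterol to cholesterol had medians of -0.25 in replicates 1 and 3 alone and 0.04 in replicates 2 and 4 alone, and those from farnesyl diphosphate to lanosterol -0.37 and 0.08. Idi1, Tm7sf2 and Ggps1 were lower by a similar amount in both sets, although Ggps1 was at -0.06 with the length and GC offset. Each set has 2 libraries per group, and the difference between the sets was not tested. Bexarotene replicate 1, which has the highest striatum and the lowest projection neuron markers, was the lowest of the 8 libraries for 9 of the 29 genes, beside 2332 of all 16069 tested genes. Beyond the fits with striatum markers given above, the part of this tissue make-up in the results was not tested.

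**Figure D5:**
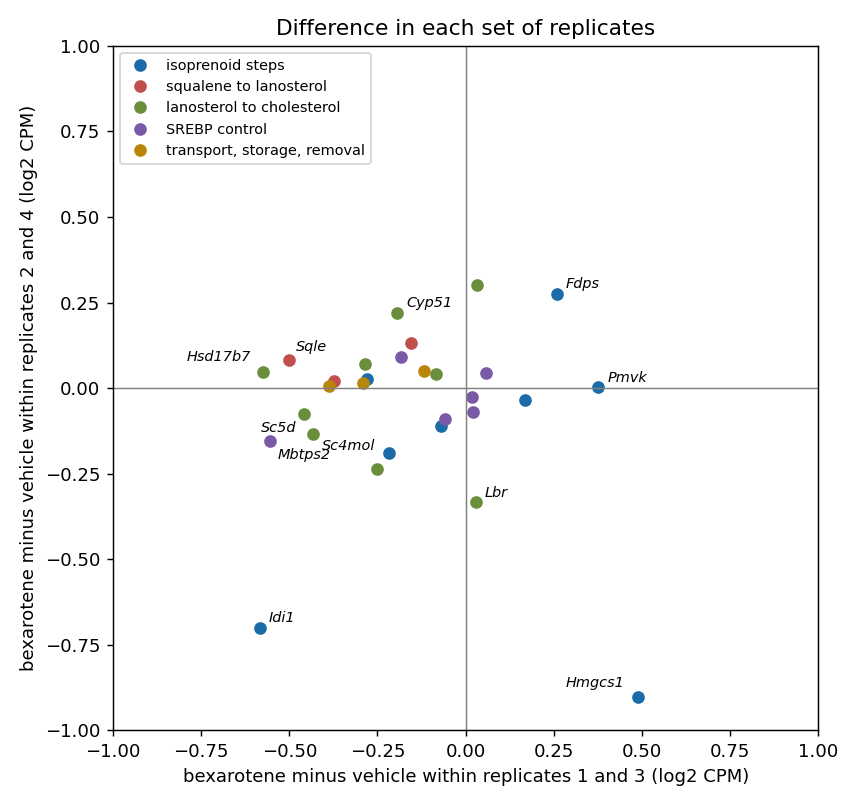
Difference of mean log2 CPM, bexarotene minus vehicle, within replicates 1 and 3 (x axis) and within replicates 2 and 4 (y axis) for the 29 genes, coloured by role. Sqle, Hsd17b7 and Sc5d lie far left of 0 but near 0 on the y axis, while Idi1 (-0.58 and -0.70) and Fdps (0.26 and 0.28) have the same sign in both.

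Other genes of sterol and isoprenoid metabolism were near 0 as groups. Of 39 such genes, 0 passed in edgeR's quasi-likelihood test, edgeR's exact test and limma voom, beside 0.00622%, 0.205% and 0.00622% of all genes. DESeq2 called 1 (Npc2), beside 0.604% of all genes, and left 6 of the 39 without an adjusted p. By each tool 1 of the 39 had an unadjusted p under 0.05, beside 8.77% of all genes in the quasi-likelihood test. Of 12 genes of the isoprenoid branch, which serve ubiquinone, dolichol and prenyl groups, 5 were higher and 7 lower with a median log2 fold change of -0.01, and none had an unadjusted p under 0.05; Nus1, of the dolichol branch, had the smallest, with -0.14 ± 0.10. Of 21 genes of sterol sensing, transport and turnover, 9 were higher and 12 lower with a median of -0.02. Npc2, which hands cholesterol out of the lysosome, was the 1 of these with an unadjusted p under 0.05. It had 66.5, 61.3, 59.0 and 64.8 CPM in bexarotene replicates 1 to 4, against 45.2, 52.4, 53.7 and 47.8 CPM in vehicle replicates 1 to 4. The groups did not overlap, beside 3.61% of all genes higher without overlap. The log2 difference was 0.34 ± 0.08 (adjusted p = 0.375, quasi-likelihood test, and adjusted p = 0.0386, DESeq2). Summed microglial markers (Cx3cr1, P2ry12, Csf1r, Tmem119, C1qa, C1qb) were at 408 to 546 CPM under bexarotene and 307 to 383 CPM under vehicle, 5 of the 6 being higher at an unadjusted p under 0.05, and their part in the Npc2 value was not tested. Of 6 genes that supply acetyl-CoA and electrons, 2 were higher and 4 lower with a median of -0.04, and Cyb5r3, a reductase that passes electrons to cytochrome b5, had 0.20 ± 0.09 with an unadjusted p of 0.0537.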

How the data were processed

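RNA was sequenced from cortex of 4 bexarotene and 4 vehicle libraries; groups and replicate numbers come from the sample titles. The deposited table holds whole-number read counts with 1 row per RefSeq transcript and unequal column totals, not normalized; the submitters' processing notes name build mm9 and edgeR. RNA was extracted with an RNeasy kit and libraries made with a stranded TruSeq mRNA kit, per the labels' protocols. No source used here names the aligner, the counter, its strand setting or the annotation. No column of values was unused (0).

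Counts were tested with edgeR 4.0.16 (R 4.3.3) by its quasi-likelihood F test, scaled by TMM, after filterByExpr, with robust dispersions and no term but the group. P-values were adjusted by Benjamini-Hochberg over the 21285 rows kept, standing for 16069 genes, and an adjusted p under 0.05 was called. Standard errors derive from the F statistic. Log2 CPM used a prior count of 2. The scripts were tested on simulated data. Lengths and GC content came from GENCODE M21 transcripts (98.5% of rows, all 29 members), and near-identical copies from BLAST+ 2.17.0 at 90% identity or more over at least 200 bases. Promoter coordinates are of GRCm38.p6, not mm9.

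Of 2 marker lists, 1 gene each is not reported here and was left out of the sums and the covariate. The members, lists and tests were chosen with earlier results of these data known. All members may be named; values of every library are given for members at an unadjusted p under 0.05 or with no overlap, Srebf2, Scap, Insig1, Insig2, Cyp46a1 and the highest member per length in each role. Hmgcs1 and Hsd17b7 values were added after they had been seen. Alternatives were RLE, upper quartile or no composition factor, no filter, DESeq2 1.42.0, edgeR's exact test, limma 3.58.1 voom, rows summed per gene, the replicate block, a length and GC offset (splines with 4 degrees of freedom each), a term for replicates 1 and 3, and each library left out. Same-numbered libraries deviated together (correlations of 0.245 to 0.496, above 0.1 for every number), so the replicate block was fitted as an alternative. The main fit did not pair the libraries. Bexarotene replicate 3 correlated more with vehicle replicate 1 (0.559) than with vehicle replicate 3 (0.245). Bexarotene replicate 4 correlated more with vehicle replicate 2 (0.381) than with vehicle replicate 4 (0.323). The correlations therefore do not single out same-numbered libraries as pairs. Nothing but the titles and these correlations links the libraries.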

Additional observations from a re-analysis of the deposited data

Results flagged for a closer look

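In 3 of 58 groups of 4 libraries, each a member in bexarotene or vehicle, the highest or lowest library stood apart from the other 3 by Dixon's test at 95%; chance gives about 1 in 20. Ggps1 was at 22.8 CPM in bexarotene replicate 2, against 18.5 to 19.1 CPM in the other bexarotene libraries. Sc4mol was at 62.3 CPM in vehicle replicate 2, against 76.1 to 78.4 CPM in the other vehicle libraries. Srebf2 was at 236 CPM in vehicle replicate 1, against 210.3 to 214 CPM in the other vehicle libraries.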

How the results depend on the processing

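The count of members past an adjusted p of 0.05 was 0 under all 22 alternatives fitted. The count at an unadjusted p under 0.05, 5 as reported, was 3 in edgeR's exact test (Idi1, Sc4mol, Mbtps2), 3 with the length and GC offset, 3 with that offset and the replicate block (both Idi1, Sc4mol and Tm7sf2, not Fdps, Sc5d or Mbtps2), and 1 to 7 with single libraries left out. The count without overlap, 2 as reported, was 1 with the offset and 2 to 7 with libraries left out (7 without bexarotene replicate 2, 4 without vehicle replicate 2). With a library left out, fewer libraries need to separate, so groups without overlap are more common for any gene. The share of all genes at an unadjusted p under 0.05 or without overlap is not given for any alternative. The counts therefore cannot be set against the 5 and the 2 reported. The median log2 fold change, -0.12 as reported, was -0.16 to -0.07 with libraries left out (-0.08 without vehicle replicate 1, -0.07 without vehicle replicate 3), 0.005 within replicates 2 and 4, and, in the first of 2 alternatives added after seeing the data, -0.041 without the 3 libraries with the highest striatum markers, where the unadjusted count was 0. In the second, with those markers as a covariate, the count was 2. With the replicate block the median was -0.11, the unadjusted count 4 (without Fdps), and 0 members were called, as without it. The cause of these moves was not tested.

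Signs were kept under every alternative by 10 of 29 members: Idi1, Fdps, Pmvk, Mvd, Ggps1, Tm7sf2, Sc4mol, Ebp, Sc5d and Mbtps2. Log2 fold changes of the opposite sign to that reported were Fdft1 0.023, Dhcr7 0.0068, Scap 0.0077, Insig2 0.025 with upper quartile scaling, Fdft1 0.018, Dhcr7 0.0025, Scap 0.0032, Insig2 0.020 with no composition factor, Mvk -0.042, Insig2 0.0071 with the offset, and Mvk -0.045, Insig2 0.012, Soat1 0.0098 with the offset and block. They were Hmgcs1 0.49, Cyp51 -0.19, Lbr 0.028, Scap 0.022, Insig2 0.018 within replicates 1 and 3, and Acat2 0.026, Mvk -0.034, Fdft1 0.13, Sqle 0.083, Lss 0.021, Nsdhl 0.071, Hsd17b7 0.048, Dhcr7 0.040, Srebf2 0.089, Stard4 0.0055, Soat1 0.014, Cyp46a1 0.051 within replicates 2 and 4. They were Fdft1 0.074, Insig1 0.071, Insig2 0.0065, Mbtps1 -0.0072 with striatum markers as a covariate, and Mvk -0.021, Fdft1 0.091, Lss 0.029, Srebf2 0.088, Insig1 0.010, Insig2 0.059 without the 3 libraries highest in them. Leaving out 1 library gave ranges across 0 for Hmgcs1 -0.89 to 0.031, Fdft1 -0.064 to 0.055, Cyp51 -0.058 to 0.079, Dhcr7 -0.086 to 0.025, Scap -0.046 to 0.0060, Insig1 -0.16 to 0.00060, Insig2 -0.066 to 0.038, Cyp46a1 -0.11 to 0.031. The length and GC offset made the log2 fold change over 1.5 times larger in 5 members, over 1.5 times smaller in 9 and of the other sign in 2. Depth limits Hmgcs1 above all, at 4 to 36 counts per library.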
